A study of Mus musculus with 7 samples.

Results

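The chemokine system was described in luminal cells sorted from mouse prostates, which form the secretory lining of the gland. Genes were taken by name. They were all genes whose platform symbol is Ccl, Cxcl, Cx3cl or Xcl followed by a number, all receptors named Ccr, Cxcr, Cx3cr or Xcr followed by a number, and the atypical receptors named Ackr. This gave 54 of the 18193 genes measured, 33 ligands and 21 receptors, represented by 86 probe sets. The rule uses names and no expression value, but it was set with earlier results of these data known. A further 4 probe sets list several genes with a matching symbol and were left out. Ccl26, Ccl19, Ccl21a, Ccl21b, Ccl21c, Ccl27b and Cxcr1 were not analysed here.

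Chemokines are small secreted proteins that direct cell migration by binding G protein-coupled receptors on the responding cell. Their names follow the spacing of the first cysteines (CC, CXC, CX3C and XC). Inflammatory members are induced by cytokines and recruit leukocytes, while homeostatic members are made continuously by stroma, epithelium or lymphoid tissue and keep cells in place. Atypical receptors bind chemokines without G protein signalling and act as scavengers or carriers. In the prostate, stromal cells are a known source of CXCL12, and leukocytes carry most of the classical receptors.

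Affymetrix 430 2.0 arrays had been hybridised with amplified RNA from 3 WT samples (replicates A to C) and 4 T-ETV1 samples (replicates A to D). WT mice were wild type. In T-ETV1 mice the endogenous Tmprss2 promoter drives a cDNA of human ETV1, an ETS transcription factor. Both groups were sorted for CD49f, after removal of cells with Sca1 or with CD31, CD45 or Ter119, which mark endothelial and blood lineages. T-ETV1 cells were in addition gated as GFP positive and WT cells were not, so that effects of the gate and of the genotype cannot be told apart. The sources used here give neither age nor strain of the mice. The design text speaks of biological replicates without naming animals, so the p-values measure the spread between these samples.

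Luminal cells were described by 5 measured markers, among them the keratins Krt8 and Krt18 and the secretory protein gene Pbsn. Their summed intensity lay between 41901 and 43336 in WT and between 41182 and 45511 in T-ETV1. Pbsn lay between 11930 and 12447, near the array maxima of 13862 to 14597, so a steady sum does not show equal purity. Markers of other cell types varied far more, and both C arrays stood apart. Values are given in the order of replicates A, B and C for WT and A, B, C and D for T-ETV1. The sum of 9 macrophage markers was 340, 470 and 17590 in WT and 925, 470, 8436 and 265 in T-ETV1. The 4 basal cell markers summed to 3948, 10277 and 15893 in WT and to 281, 914, 13681 and 1157 in T-ETV1. For 4 mast cell markers the sum was 79.5, 89.0 and 4932 in WT and between 38.2 and 45.3 in T-ETV1, so that the sum was high on WT C alone. Among them Kit went another way, with 41.7, 64.5 and 92.2 in WT and 7.59, 4.29, 18.8 and 9.22 in T-ETV1. Every WT array was thus above every T-ETV1 array for Kit. Ptprc, which encodes the CD45 protein selected against in the sort, had log2 values of 4.44, 4.37 and 8.92 in WT and of 4.52, 4.60, 6.17 and 4.36 in T-ETV1. The 5 leukocyte markers, Ptprc among them, summed to 10188, 10353 and 14877 in WT and to 9547, 12739, 12541 and 9271 in T-ETV1. Of these 5, 4 were highest on WT C, while Cd52, with 7259, 6831 and 6657 in WT, was the lowest of WT there. In RNA of whole sorted populations, fewer cells of a type and less RNA per cell cannot be told apart. Most differences that WT C carries are therefore followed by their value without it.

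No chemokine or receptor gene passed the test between the genotypes. With limma on log2(intensity + 16) and Benjamini-Hochberg adjustment, 0 of 54 had an adjusted p under 0.05, as did 0% of all genes, where the smallest adjusted p was 0.485. At an unadjusted p under 0.05 there were 3 of 54 (5.56%), namely Cxcl14, Cxcl12 and Cxcr6, all lower in T-ETV1. Over all genes the share was 6.12%, so the members' share was near the background. The arrays of the groups did not overlap for 2 members (3.70%), Cxcl14 and Cxcr6, against 6.32% of all genes in either direction and 3.90% in the lower direction.

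The sizes of the differences leaned to one side. The log2 difference, T-ETV1 minus WT, was below 0 in 36 of 54 members (66.7%), against 55.6% of all genes, and its median was -0.24 against -0.03 for all genes. Differences at or under -1 occurred in 11 members (20.4%), against 4.67% of all genes. They were Ackr1, Ccl2, Ccl7, Ccl8, Ccl9, Ccl12, Ccr2, Cxcl12, Cxcl13, Cxcl14 and Cxcr4. A difference at or over 1 occurred in 0 members, against 0.715% of all genes.

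That lean depended on single arrays. The median was -0.49 without WT A or T-ETV1 C and -0.39 without WT B, but it changed sign without WT C. Without WT C, 22 members were below 0, against 49.4% of all genes, and the members' median was 0.06. Only Cxcl14 then had a difference at or under -1, against 2.85% of all genes, while Ccl3, Cxcl1, Cxcl2 and Cxcl10 had one at or over 1, against 1.68%. No member passed the adjusted threshold without WT C, where 0.0385% of all genes did, or without T-ETV1 C, where 0.148% did. Without both C arrays 27 members were below 0, against 51.9% of all genes, and the median was -0.01. In that comparison 1 member passed, Cxcl14, against 0.374% of all genes, and 8 members (14.8%) did not overlap, against 26.0% of all genes. With the replicate letters A to C as a block, which leaves out T-ETV1 D, 0 members passed and 0% of all genes did. At an unadjusted p under 0.05 that fit had 5 members (Ackr3, Ccl9, Cxcl12, Cxcl14 and Cxcr6), against 7.22% of all genes.

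**Figure D1:**
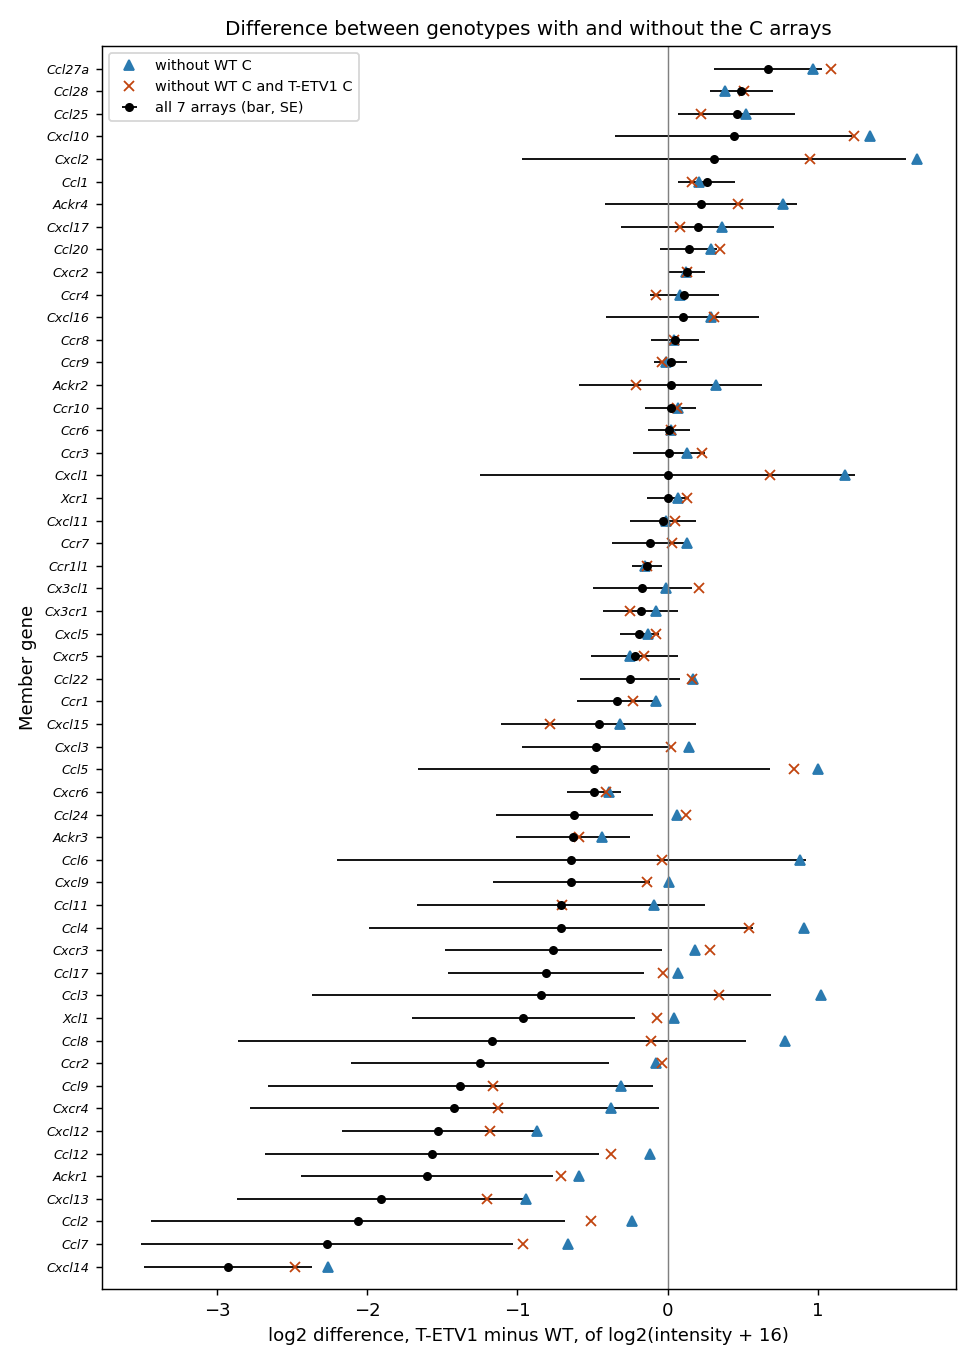
Log2 difference, T-ETV1 minus WT, of the chemokine and receptor genes with all 7 arrays (points with SE), without WT C and without both C arrays. With all arrays 36 of 54 members lie below 0, and without WT C 22 do. Cxcl14 lies at -2.93, -2.26 and -2.48 in the 3 versions.

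Level was a further division. In 10 members the intensity was 100 or more on every array. These were 8 ligands (Ccl25, Ccl27a, Cx3cl1, Cxcl10, Cxcl12, Cxcl15, Cxcl16 and Cxcl17) and the atypical receptors Ackr3 and Ackr4. In 23 members, 8 ligands and 15 receptors, the probe set used stayed under 100 on every array, though a second one of Cxcr6 and of Cx3cr1 rose on WT C. The other 21 crossed that level between arrays, among them all CCR2 ligands and the receptors Ccr2, Cxcr3, Cxcr4 and Ackr1. An array intensity depends on the probe as well as the transcript, so levels are compared between arrays of 1 gene and not between genes. At low intensity the added 16 shrinks differences on the log2 scale.

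**Figure D2:**
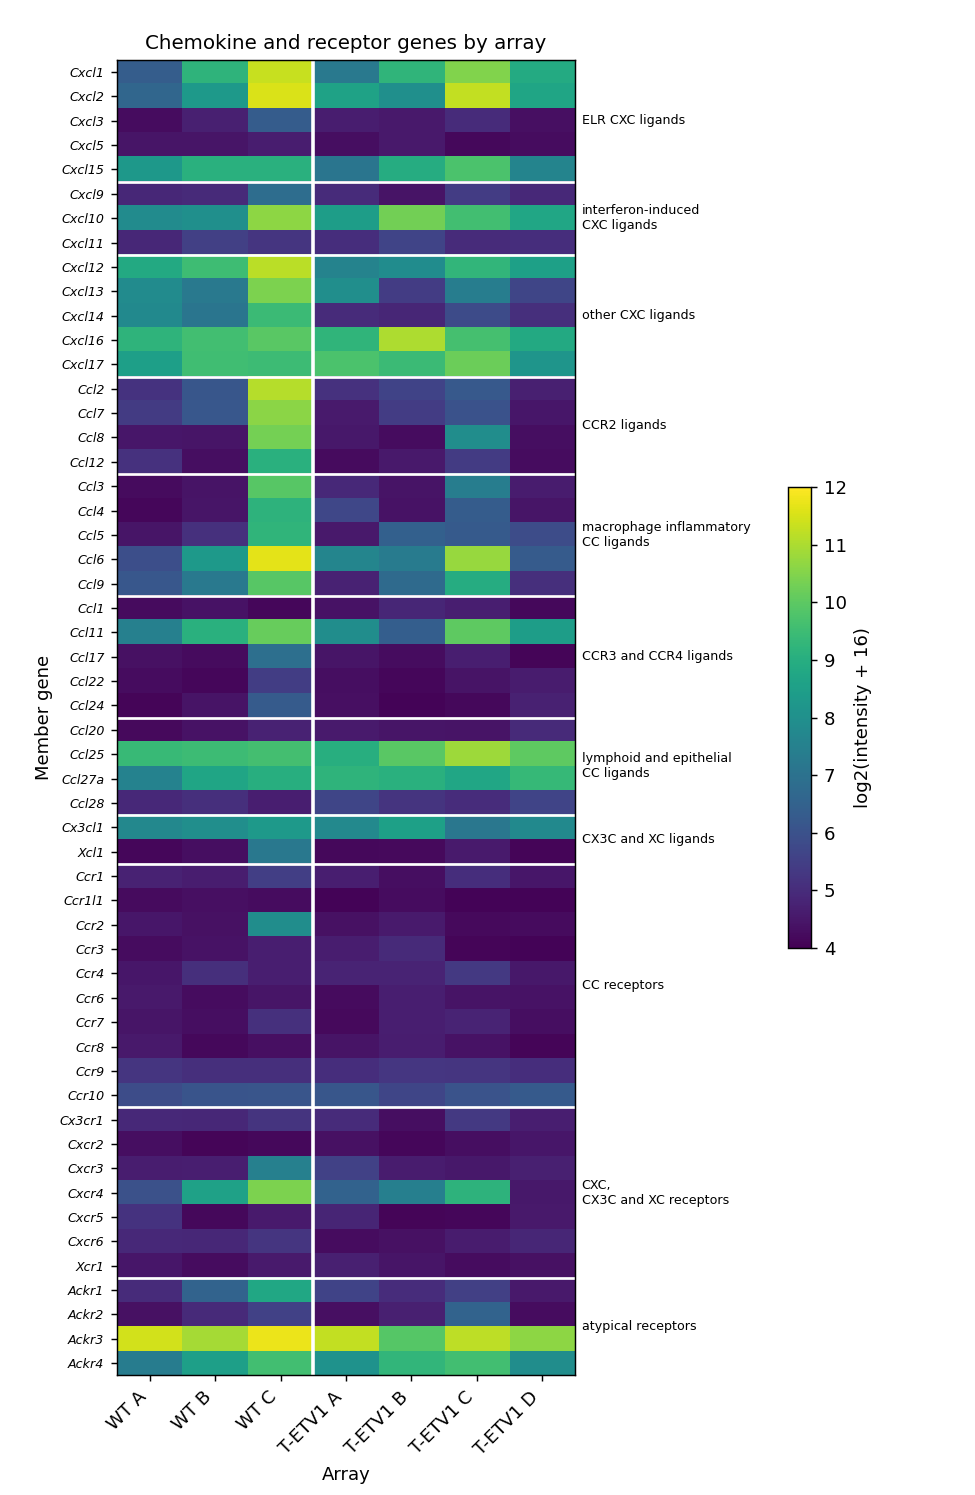
Log2(intensity + 16) of the 54 chemokine and receptor genes (vertical, grouped by role) on the 7 arrays (horizontal), with colour from low to high. The WT C column holds the highest value of 31 genes, 23 of them ligands.

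Cxcl14 encodes a homeostatic chemokine of epithelia and stroma and had the smallest p of the members. Its intensity was 205, 122 and 688 in WT and 15.5, 13.1, 41.0 and 17.6 in T-ETV1. Every T-ETV1 array lay below every WT array, and the C array was the highest of each group. The log2 difference was -2.93 ± 0.56 (SE), with an unadjusted p of 0.00139 and a limma adjusted p of 0.581. Without WT C it was -2.26 and without T-ETV1 C -3.15, with limma adjusted p values of 0.373 and 0.192. Without both C arrays it was -2.48 ± 0.24, and there Cxcl14 passed the threshold (limma adjusted p = 0.0427). With the replicate block it was -2.90 ± 0.31. A second probe set of the gene gave -2.72 ± 0.90, but there the groups overlapped, with a log2 value of 6.80 in WT A and 6.94 in T-ETV1 C.

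Cxcl12, the stromal chemokine that retains CXCR4-bearing cells, had 3 of 4 T-ETV1 arrays below every WT array. Its intensity was 448, 713 and 2281 in WT and 174, 220, 602 and 357 in T-ETV1, with the C array highest in each group. T-ETV1 C lay between WT A and WT B, so the groups overlapped. The difference was -1.53 ± 0.64 (unadjusted p = 0.049, limma adjusted p = 0.812), and it was -0.87 without WT C and -1.18 without both C arrays. With the replicate block it was -1.60 ± 0.18 (limma unadjusted p = 0.000926, adjusted p = 0.401). Of the other probe sets of Cxcl12, one gave -1.79 ± 0.61 and the other 0.22 ± 0.16, the latter with log2 values between 4.28 and 4.94.

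None of the 6 fibroblast markers measured passed the test. Their summed intensity was 3764, 7352 and 20383 in WT and 2883, 1782, 8469 and 2770 in T-ETV1. All 6 had a difference below 0, with a median of -2.06. Without WT C the median was -0.91 and 5 of 6 were below 0, Pdgfra being at 0.02. None was at 1 or below on any array. The collagen Col3a1 had -2.91 ± 0.84 and Col1a2 -2.36 ± 0.81, with limma adjusted p values of 0.724 and 0.772. Without WT C the differences were -2.33 and -1.41. The 6 smooth muscle and pericyte markers summed to 481, 1501 and 4630 in WT and to 156, 213, 846 and 445 in T-ETV1, and 0 passed. The part of these cells in the 2 chemokine differences was not tested.

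The promoters of 5 ligands are shown as examples. Cxcl14 and Cxcl12 stand for the lower members, and Cxcl1, Cxcl2 and Cxcl10 for inflammatory ligands with a difference over 1 without WT C. Ccl3, which also had such a difference (1.02), is not shown. Each is the 250 bases before the RefSeq transcription start on GRCm38.p6, read 5′ to 3′ on the gene's strand. Capitals mark matches, on either strand, to the NF-kB motif GGNNTTTCC or the interferon-response motif GAAANNGAA. NF-kB and the interferon-activated factors are the known inducers of inflammatory chemokines. The windows are chr13:56296552-56296801 (minus strand) for Cxcl14, chr6:117168285-117168534 (plus) for Cxcl12, chr5:90890995-90891244 (plus) for Cxcl1, chr5:90903649-90903898 (plus) for Cxcl2 and chr5:92348890-92349139 (minus) for Cxcl10.
Cxcl14: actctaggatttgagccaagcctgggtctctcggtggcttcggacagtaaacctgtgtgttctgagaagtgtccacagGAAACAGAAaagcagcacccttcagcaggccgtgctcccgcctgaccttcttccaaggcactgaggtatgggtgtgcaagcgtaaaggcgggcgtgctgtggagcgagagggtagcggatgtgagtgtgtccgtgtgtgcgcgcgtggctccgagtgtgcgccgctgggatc
Cxcl12: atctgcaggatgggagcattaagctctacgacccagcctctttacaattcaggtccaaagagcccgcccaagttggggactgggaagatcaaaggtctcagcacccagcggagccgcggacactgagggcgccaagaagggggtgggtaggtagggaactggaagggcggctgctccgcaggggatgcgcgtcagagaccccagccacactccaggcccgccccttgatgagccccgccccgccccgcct
Cxcl1: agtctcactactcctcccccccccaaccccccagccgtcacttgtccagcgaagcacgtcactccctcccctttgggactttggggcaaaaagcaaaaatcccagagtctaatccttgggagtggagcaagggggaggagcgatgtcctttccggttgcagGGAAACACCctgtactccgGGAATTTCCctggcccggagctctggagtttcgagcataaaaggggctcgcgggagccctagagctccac
Cxcl2: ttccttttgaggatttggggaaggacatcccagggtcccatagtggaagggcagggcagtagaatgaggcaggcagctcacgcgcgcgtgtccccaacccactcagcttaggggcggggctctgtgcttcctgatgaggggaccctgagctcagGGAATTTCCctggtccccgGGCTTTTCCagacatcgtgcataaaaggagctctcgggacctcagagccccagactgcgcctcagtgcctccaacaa
Cxcl10: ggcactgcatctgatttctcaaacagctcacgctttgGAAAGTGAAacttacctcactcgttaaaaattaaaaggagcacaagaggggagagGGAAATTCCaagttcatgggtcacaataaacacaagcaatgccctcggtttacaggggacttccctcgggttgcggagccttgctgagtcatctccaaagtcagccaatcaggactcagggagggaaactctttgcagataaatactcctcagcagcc

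Cxcl1 and Cxcl2 each held a pair of NF-kB matches, the first starting 89 and 96 bases before the start site and the second 70 and 77 bases before it. Cxcl10 had 1 NF-kB match starting 158 bases before its start and 1 interferon-response match at 213 bases. Cxcl14 held 1 interferon-response match at 172 bases, and neither motif was found in the Cxcl12 window. No match overlapped another in these windows. Of the 54 members 41 had a RefSeq window of 300 bases, which adds 50 bases after the start. The NF-kB motif occurred in 9 of these 41 (Ackr4, Ccl20, Ccl9, Ccr3, Cxcl1, Cxcl10, Cxcl2, Cxcl3 and Cxcl9), and in 5.82% of all 32851 windows. The interferon-response motif occurred in 6 (Ccl1, Ccl3, Ccr2, Cxcl10, Cxcl14 and Cxcl9), and in 8.56% of all windows. Ccl3, whose sequence is not shown, thus had the interferon-response motif only. The 41 members had 45 windows and were counted by gene, with a match in any window. The shares over all are of single windows, so the units differ. A match is a description of the letters and not of binding.

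Among the remaining CXC ligands of this kind, Cxcl13, the B cell attractant of lymphoid follicles, had intensities of 217, 134 and 1365 in WT and of 233, 26.4, 150 and 34.7 in T-ETV1. WT C was far above the rest, and T-ETV1 A lay above WT A and WT B. The difference was -1.91 ± 0.96 (limma adjusted p = 0.845) and -0.94 without WT C. Cxcl16, a membrane-bound ligand of CXCR6, had 575, 752 and 975 in WT and 580, 2049, 780 and 453 in T-ETV1. Its highest value was on T-ETV1 B and the difference was 0.10 ± 0.51. Cxcl17, a chemokine of mucosal epithelia, had 349, 729 and 705 in WT and 824, 678, 1164 and 274 in T-ETV1. The WT arrays lay within the range of the T-ETV1 arrays, and the difference was 0.20 ± 0.51.

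**Figure D3:**
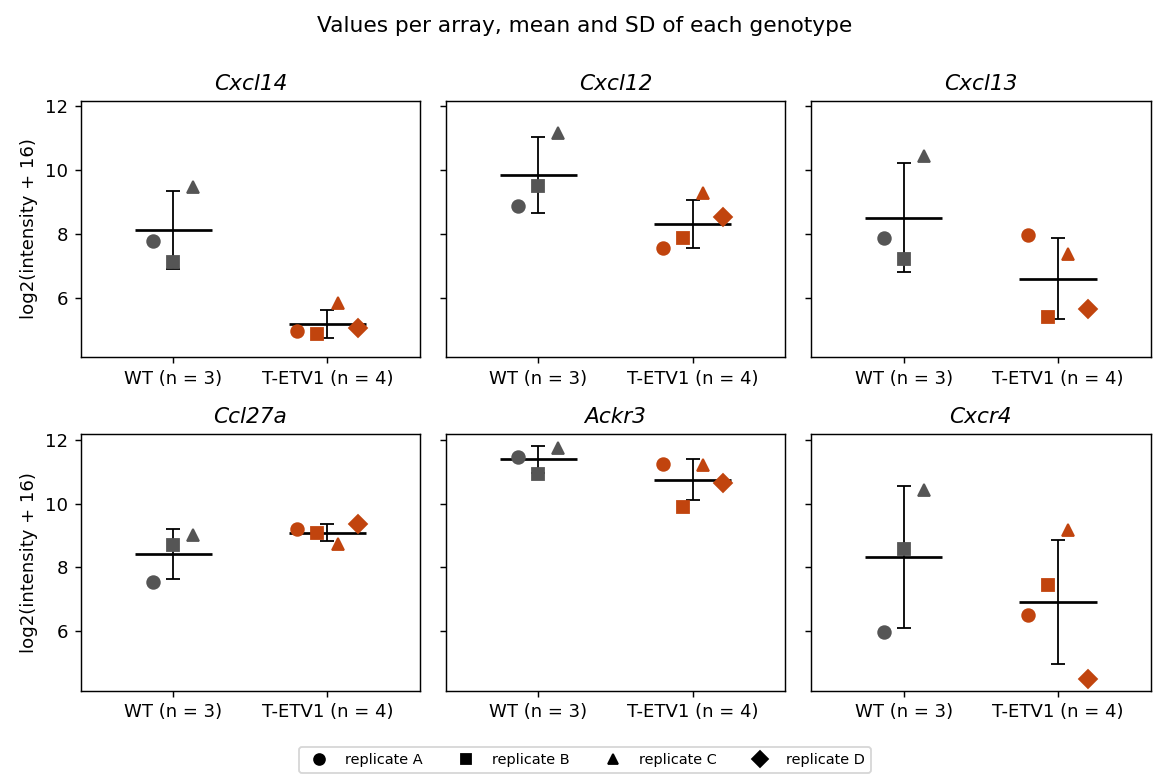
Log2(intensity + 16) on each array for Cxcl14, Cxcl12, Cxcl13, Ccl27a, Ackr3 and Cxcr4, with each array as a point whose shape gives its replicate letter, the group mean as a line and the SD as a bar. The groups are apart for Cxcl14 and overlap for the other 5.

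The ELR CXC ligands, which recruit neutrophils through CXCR2, had 5 measured members, and 0 passed. Cxcl1 had intensities of 66.0, 572 and 2558 in WT and of 135, 587, 1418 and 458 in T-ETV1, a range of 4.97 log2 units. The C array was the highest in both groups, WT A was the lowest of all 7, and the difference was 0.00 ± 1.25. Without WT C the difference was 1.18. Cxcl2 had 84.0, 301 and 2973 in WT and 374, 237, 2446 and 401 in T-ETV1. Again the C array was the highest in both groups and WT A the lowest of all 7. The difference was 0.31 ± 1.28, and 1.66 without WT C.

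Cxcl15, a ligand first known from lung epithelium, had 291, 526 and 527 in WT and 124, 475, 837 and 179 in T-ETV1. T-ETV1 C was the highest and T-ETV1 A the lowest, and the difference was -0.46 ± 0.65. Cxcl3 stayed between 3.13 and 65.1 and Cxcl5 at most at 9.02. Cxcl5 had -0.19 ± 0.13, from 5.73, 5.97 and 9.02 in WT and 3.79, 7.62, 2.09 and 3.01 in T-ETV1, where T-ETV1 B overlapped the WT arrays. Their receptor Cxcr2 had intensities of at most 6.37 and a difference of 0.13 ± 0.12.

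Of the 3 interferon-induced CXC ligands, which attract activated T cells through CXCR3, 0 passed. Cxcl10 had 218, 234 and 1580 in WT and 332, 1248, 756 and 409 in T-ETV1. All 4 T-ETV1 arrays lay above WT A and WT B, and WT C was the highest of the 7. The difference was 0.44 ± 0.79 (limma adjusted p = 0.962). It was 1.35 without WT C (limma adjusted p = 0.921) and 1.24 without both C arrays (0.636). Cxcl9 reached 101 in WT C and at most 26.4 elsewhere, with -0.64 ± 0.52, and 0.01 without WT C. Cxcl11 stayed between 13.8 and 34.2, with -0.03 ± 0.22. Their receptor Cxcr3 had 9.17, 9.48 and 161 in WT and 30.4, 8.35, 6.94 and 9.83 in T-ETV1. WT C was high and the others low, and the difference was -0.76 ± 0.72 and 0.18 without WT C.

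All 4 CCR2 ligands, which recruit monocytes, had a difference below 0, with a median of -1.82, and 0 passed. Their summed intensity was 71.9, 120 and 5555 in WT and 36.7, 69.8, 363 and 23.1 in T-ETV1. WT C thus stood far above all other arrays, and T-ETV1 C was the highest of its group. Ccl2 had 20.1, 54.7 and 2216 in WT and 19.0, 32.5, 59.5 and 10.1 in T-ETV1, with the widest range of the members, 6.42 log2 units. Its difference was -2.06 ± 1.38, and -0.24 without WT C. Ccl7 had 26.4, 55.7 and 1535 in WT and 7.76, 26.8, 49.4 and 6.19 in T-ETV1.

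The Ccl7 difference was -2.27 ± 1.24, and it was -0.66 without WT C, with the groups overlapping. Ccl8 had 6.33, 5.94 and 1277 in WT, and in T-ETV1 228 on array C and at most 7.16 on the others. It was thus near the lowest intensities outside the C arrays, and the difference went from -1.17 ± 1.69 to 0.78 without WT C. Ccl12 reached 527 in WT C and at most 26.0 elsewhere, with -1.57 ± 1.11, and -0.12 without WT C. Over the group the median was -0.18 without WT C and -0.45 without both C arrays. The receptor Ccr2, a marker of monocytes, had 6.10, 4.72 and 227 in WT and at most 7.81 in T-ETV1, with -1.25 ± 0.86 and -0.08 without WT C.

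The 5 measured macrophage inflammatory CC ligands (Ccl3, Ccl4, Ccl5, Ccl6 and Ccl9), made by macrophages and activated lymphocytes, gave the same picture. All 5 had a difference below 0, with a median of -0.71 that became 0.91 without WT C, and 0 passed. Summed intensities were 111, 472 and 6313 in WT and 252, 321, 2478 and 136 in T-ETV1. Ccl3 had 2.82, 5.23 and 950 in WT and 14.4, 5.63, 153 and 8.58 in T-ETV1. Both C arrays were high and the other 5 were at or under 14.4. The difference was -0.84 ± 1.53, and 1.02 without WT C. Ccl6 had 44.5, 307 and 3261 in WT and 183, 145, 1718 and 62.2 in T-ETV1, with -0.64 ± 1.56 and 0.88 without WT C.

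Ccl9 reached 957 in WT C and 482 in T-ETV1 C, with -1.38 ± 1.28, and -0.31 without WT C. Ccl4 and Ccl5 reached 559 and 587 in WT C and at most 64.3 and 72.2 elsewhere. Their differences were -0.71 ± 1.28 and -0.49 ± 1.17, and without WT C both lay above 0 (0.91 for Ccl4). Without both C arrays Ccl4 was at 0.54 and Ccl5 at 0.84. Ccr1, a receptor of several of these ligands, stayed at or under 28.4 and had -0.34 ± 0.26, and -0.08 without WT C. Of 9 macrophage markers, 9 had their highest value on WT C, and 8 were highest on T-ETV1 C within T-ETV1. Among these markers Adgre1 was at 1 or below on 1 array or more and none was on every array. The part of macrophages in the values of these ligands was not tested.

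**Figure D4:**
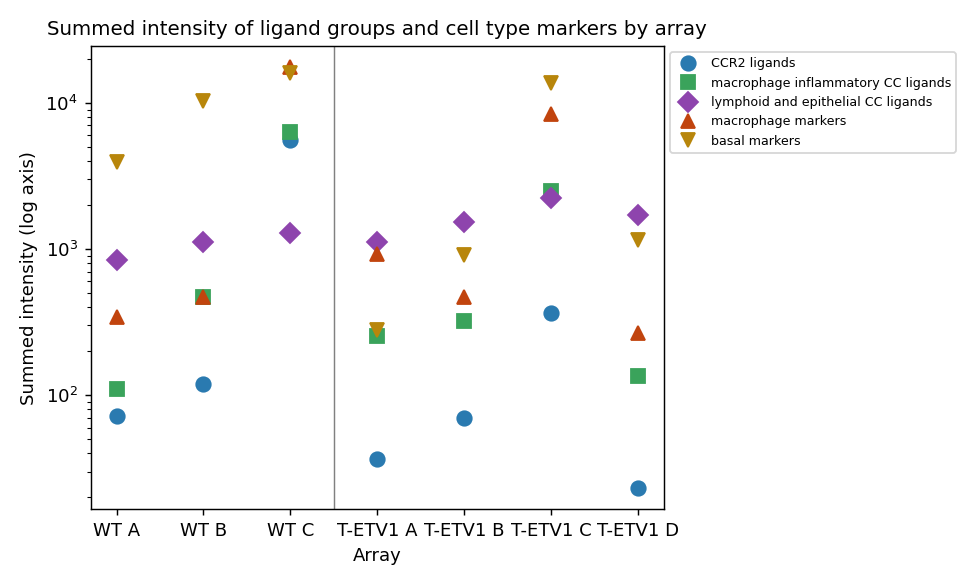
Summed intensity (log axis) on each array for the CCR2 ligands, the macrophage inflammatory CC ligands, the lymphoid and epithelial CC ligands, the macrophage markers and the basal cell markers. Arrays can be compared within a series of points and not between series. The CCR2 ligands reach 5555 in WT C and at most 363 elsewhere, and macrophage markers reach 17590 in WT C and 8436 in T-ETV1 C.

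Of the ligands of CCR3, CCR4 and CCR8, which attract eosinophils and T helper cells, 5 were measured and 0 passed. Ccl11, the eosinophil attractant eotaxin, had 163, 529 and 1111 in WT and 226, 67.4, 1030 and 335 in T-ETV1. The C arrays were the highest of both groups and close to each other, and the difference was -0.71 ± 0.96, or -0.09 without WT C. Ccl17 and Ccl24 reached 105 and 62.6 in WT C and at most 9.42 and 10.3 elsewhere. Ccl22 stayed at or under 28.1, and Ccl1 had 0.26 ± 0.19 at similarly low values. The receptors Ccr3, Ccr4 and Ccr8 stayed at or under 14.7, 24.1 and 8.86.

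Among the ligand groups, only the CC ligands of epithelia and lymphoid tissue had no difference below 0 with all 7 arrays. The sign itself was not particular to them. With all arrays 18 of the 54 members were above 0, and without WT C 32 were. All 4 measured (Ccl20, Ccl25, Ccl27a and Ccl28) had a difference above 0, also without WT C and without both C arrays, and 0 passed. Ccl27a, a ligand of CCR10 known from skin, had 170, 399 and 504 in WT and 575, 522, 405 and 636 in T-ETV1. T-ETV1 C lay within the WT range and the other 3 above it. The difference was 0.67 ± 0.36 (limma adjusted p = 0.859), 0.97 without WT C and 1.09 without both C arrays. Its probe set carries the suffix that marks probes shared with other transcripts, and copies of the gene are near identical, so the source of the signal is uncertain.

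Ccl28, a mucosal ligand of CCR10 and CCR3, had 14.0, 17.9 and 9.65 in WT, and 35.2, 20.8 and 33.9 in T-ETV1 A, B and D. These 3 arrays lay above all WT arrays, and T-ETV1 C lay between WT A and WT B. The difference was 0.49 ± 0.21 (unadjusted p = 0.0531). The other probe sets of Ccl28 gave 0.06 ± 0.22 and 0.04 ± 0.13, and the mean of all 3 gave 0.20. Ccl25, a ligand of CCR9, had 659, 703 and 759 in WT and 505, 974, 1813 and 1028 in T-ETV1. T-ETV1 A was the lowest of the 7 and the other T-ETV1 arrays were above all WT arrays, for 0.46 ± 0.39. Ccl20, the ligand of CCR6, was at or under 14.8 (0.14 ± 0.19). The receptors Ccr9 and Ccr10 had 0.02 ± 0.11 and 0.02 ± 0.17, at intensities of at most 22.6 and 60.9.

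Cx3cl1, the membrane-anchored fractalkine, had 196, 232 and 302 in WT and 205, 361, 128 and 208 in T-ETV1, with -0.17 ± 0.33 and overlapping groups. Xcl1, a chemokine of T and NK cells, reached 132 in WT C and at most 7.81 elsewhere, with -0.96 ± 0.74, and 0.04 without WT C. The 6 T and NK cell markers summed to 57.9, 51.4 and 1568 in WT and to between 58.8 and 162 in T-ETV1. On the probe sets used, the receptors Cx3cr1 and Xcr1 stayed at or under 23.9 and 9.90. A second probe set of Cx3cr1 had a log2 value of 7.23 in WT C and at most 4.59 elsewhere, with -0.96 ± 0.65.

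Of the 10 CC receptors and the 7 receptors of the CXC, CX3C and XC classes measured, 0 passed. Cxcr4, the receptor of CXCL12, had 47.5, 370 and 1342 in WT and 74.9, 160, 557 and 6.85 in T-ETV1, a range of 5.89 log2 units. The C array was the highest in each group and T-ETV1 D the lowest of all. The difference was -1.42 ± 1.36, and -0.38 without WT C. Cxcr6, the receptor of CXCL16, had 14.4, 13.7 and 21.4 in WT and 3.25, 4.65, 8.21 and 13.1 in T-ETV1. The groups did not overlap, but T-ETV1 D lay just under WT B, and the difference was -0.49 ± 0.18 (unadjusted p = 0.0287, limma adjusted p = 0.775). A second probe set of Cxcr6 gave -0.80 ± 0.72 with overlapping groups. Its log2 value was 7.11 in WT C and at most 4.66 elsewhere. The groups also overlapped with the mean of probe sets (-0.65), after median centring (-0.35) and after quantile normalization (-0.43). On the probe sets used, 13 receptors stayed under 32 on every array, Cxcr6 among them.

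Cxcr5, the receptor of CXCL13, stayed at or under 19.8 (-0.22 ± 0.29). The lymphocyte homing receptors Ccr6 and Ccr7 stayed at or under 9.43 and 18.3. Ccr1l1, a Ccr1-like gene, stayed at or under 4.26, with -0.14 ± 0.10.

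The atypical receptors numbered 4, and 0 passed. Ackr3, which scavenges CXCL12, had 2807, 1910 and 3430 in WT and 2415, 935, 2347 and 1584 in T-ETV1. The T-ETV1 arrays A and C lay above WT B, and B and D lay below all WT arrays. The difference was -0.63 ± 0.38 (limma adjusted p = 0.876), -0.44 without WT C and -0.59 without both C arrays. Ackr4, a scavenger of CCL19, CCL21 and CCL25, had 148, 355 and 746 in WT and 254, 600, 756 and 224 in T-ETV1. Both C arrays were high and nearly equal, and the difference was 0.22 ± 0.64, or 0.77 without WT C.

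Ackr1, which carries inflammatory chemokines across venular endothelium, had 15.8, 77.1 and 424 in WT and 32.4, 16.7, 29.8 and 7.29 in T-ETV1. WT C was far above the others, and the difference was -1.60 ± 0.84, or -0.59 without WT C. The 7 endothelial markers summed to 1655, 1905 and 3650 in WT and to 686, 363, 2238 and 766 in T-ETV1. All 7 had a difference below 0, of which 0 passed. Without WT C all 7 stayed below 0, with a median of -1.62, and 0 passed. Without T-ETV1 C 1 of them passed, Cldn5 (limma adjusted p = 0.00181), against 0.148% of all genes. Whether endothelial cells had a part in the Ackr1 values was not tested. Ackr2, a scavenger of inflammatory CC chemokines, had its highest value, 78.5, on T-ETV1 C, with 0.02 ± 0.61 (0.32 without WT C and -0.21 without both C arrays).

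Array by array, WT C held the highest value of 31 of the 54 members (57.4%), 23 ligands and 8 receptors, against 24.2% of all genes. WT A and WT B each held the highest value of 1 member, against 12.1% and 8.82% of all genes. The C array was the highest of both groups in 25 members (46.3%), against 19.7% of all genes. In 18 members (33.3%) WT C exceeded both WT A and WT B by at least 2 log2 units, against 2.49% of all genes. These were Ackr1, Ccl2, Ccl3, Ccl4, Ccl5, Ccl6, Ccl7, Ccl8, Ccl9, Ccl12, Ccl17, Ccr2, Cxcl1, Cxcl2, Cxcl10, Cxcl13, Cxcr3 and Xcl1. Members with a value on 1 array in common share that sample and are not separate observations.

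**Figure D5:**
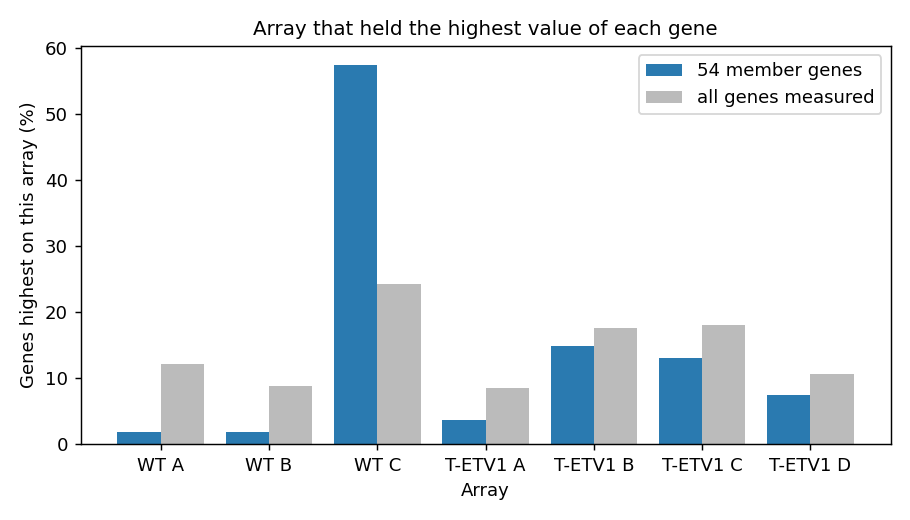
Share of genes (%) whose highest value lies on each array, for the 54 members and for all genes measured. WT C holds 57.4% of the members and 24.2% of all genes.

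Genes that act with the chemokines were read from 4 lists, and 0 genes of any of them passed. Of 10 family genes outside the naming rule, 6 had a difference below 0 and 4 above it. Rarres2, which encodes the chemoattractant chemerin, had 429, 810 and 2071 in WT and 146, 97.4, 500 and 176 in T-ETV1. Only T-ETV1 C overlapped the WT arrays, lying above WT A, and the difference was -2.15 ± 0.68 (unadjusted p = 0.0166, limma adjusted p = 0.755). Without WT C the Rarres2 difference was -1.55. Of 25 measured genes of receptor signalling, 19 were below 0 and 6 above. The arrestin Arrb2 had 1272, 1297 and 1234 in WT and 1046, 1134, 812 and 877 in T-ETV1, with -0.40 ± 0.14 (limma adjusted p = 0.772). Its groups did not overlap. The phospholipase Plcb2 had 0.38 ± 0.13 at intensities of at most 12.3.

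Of 28 measured inducers of chemokine genes 22 were below 0 and 6 above, and 11 were below 0 without WT C. The tumour necrosis factor receptor Tnfrsf1b had 69.4, 64.6 and 249 in WT and 6.48, 56.5, 34.7 and 5.81 in T-ETV1. The groups did not overlap, and the difference was -1.74 ± 0.61 (limma adjusted p = 0.772), or -1.18 without WT C. Of 9 measured genes of chemokine processing and presentation 6 were below 0 and 3 above. Adam17, a protease that sheds CX3CL1 and CXCL16, had -0.48 ± 0.19 and passed no adjusted threshold.

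Several probe sets were available for 20 members, and in 9 of them a second probe set had the opposite sign. These were Ackr2, Ackr4, Ccr9, Cx3cl1, Cxcl1, Cxcl11, Cxcl12, Cxcl16 and Cxcl9. A second probe set of Ackr4 gave -0.78 ± 0.73 against 0.22 for the one used, and a second one of Cx3cl1 gave 0.36 ± 0.16 against -0.17.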

How the data were processed

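Gene expression was measured in 3 WT and 4 T-ETV1 samples. RNA was extracted with Trizol and amplified with a NuGEN kit, per the labels' protocols. The authors deposited linear intensity values of 45037 probe sets on each array. How probes were summarised and arrays scaled is not given in the sources used here. Array medians of log2(intensity + 16) differed by at most 0.476, under the limit of 0.5 for quantile normalization, so the deposited scaling was kept. Depth does not apply to arrays, and their number limits the precision.

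The platform annotation gave 1 symbol to 34945 probe sets, several to 932 and listed no entry for 9160. For 34741 the symbol was brought up to date by Entrez ID. Each gene was represented by its probe set of highest mean over all arrays. The test was limma 3.58.1, run under R 4.3.3 (lmFit, then eBayes, T-ETV1 minus WT, two-sided) with Benjamini-Hochberg adjustment over 18193 genes, threshold 0.05. The script was tested on simulated data. Fold changes are on the log2(intensity + 16) scale, which understates those of low genes.

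Values per array are given for 33 members by rule: the 12 highest in level, the 12 with the smallest p, those without overlap, the 6 of widest range, and their receptors. Of each other list up to 4 genes with the smallest p could be named. Other members are given by range or in part to account for all. Adgre1 and Pdgfra were named after their values were seen. The members and lists were chosen with earlier results of these data known.

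Both groups have replicates lettered A to C. Deviations from the group means correlated at 0.281, 0.217 and 0.356 for the A, B and C arrays, all over 0.1. From the labels and this check the letters were taken as pairs in the replicate block, which leaves out T-ETV1 D. The main fit did not use the pairs, and its SE and p-values are unpaired. The pair WT A and T-ETV1 D, whose letters differ, correlated at 0.187. Alternatives were quantile normalization, median centring, pseudocounts of 1 and 64, filters that dropped the lowest 30% or 50% of genes, averaged probe sets, eBayes with trend or robust settings, array weights, the replicate block, each array left out in turn and both C arrays left out, the last because earlier results of these data had shown them to stand apart. Promoter sequences were taken from a RefSeq table on GRCm38.p6.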

Additional observations from a re-analysis of the deposited data

Results flagged for a closer look

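In the 4 T-ETV1 arrays, the gap between one array and its nearest neighbour was taken as a share of the range. This share was past Dixon's 95% critical value for 4 of the 33 members with values per array. Chance alone gives such a gap in about 1 in 20 groups. Some of the 33 were chosen for their wide range on these same arrays, Ccl3 and Ccl8 by that rule alone. The count of 4 can therefore not be set against that rate. T-ETV1 C stood high for 2 of the 4 members. The share was 0.92 for Ccl8, at an intensity of 228 against at most 7.16 on the others, and 0.83 for Ccl3, at 153 against at most 14.4. For Cxcr3 it was 0.83, with T-ETV1 A at 30.4 and the others at most at 9.83. For Ccr1l1 it was 0.99, with T-ETV1 B at 3.37 and the others at 1.03 or less, where the values are near the lowest on the arrays. The 3 WT arrays were not screened in this way. There WT C stood higher still for Ccl8, at 1277 against 6.33 and 5.94.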

How the results depend on the processing

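Of the 33 members with values per array, Cxcl1 had a difference of 0.00 and thus no direction to keep. For the other 32, the 19 alternatives gave 577 log2 differences. Of these 542 kept their direction and their side of the threshold, 34 reversed and 1 passed the threshold. The eBayes settings and the filters leave a log2 difference unchanged, so there only the side of the threshold could move. The replicate block repeats the differences found without T-ETV1 D. Part of the 542 was thus fixed in advance, and the count is not a measure of stability. Reversals touched 13 members, and 19 never reversed, Cxcl14, Cxcl12, Cxcr6, Ackr3 and Ccl27a among them. Without both C arrays 68 genes passed, 1 of them a member (Cxcl14), and 8 members (14.8%) did not overlap between groups, against 26.0% of all genes. With each array left out in turn, between 0 and 27 genes passed (7 without WT C, 27 without T-ETV1 C), 0 members passed, and between 2 and 6 members did not overlap (3.70% to 11.1%). Over all genes this share also exceeded the 6.32% of all 7 arrays each time, and the members' share was the higher one only without T-ETV1 B (11.1% against 10.2%). The count was 1, with Cxcr6 lost, with the mean of probe sets, with median centring, with quantile normalization and without the lowest 30% of genes, and 0 without the lowest 50%, which also left fewer members to count (26 and 14). The replicate block changed no call of a member.

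Array weights turned Ackr4 to -0.03, Cxcl16 to -0.07, Cxcl17 to -0.17 and Cxcr5 to 0.14. The mean of probe sets turned Ackr4 to -0.12 and a pseudocount of 1 turned Ccr3 to -0.27. The replicate block, which leaves out T-ETV1 D, gave -0.06 for Ccr10, the same value as leaving out T-ETV1 D alone. Without both C arrays Ccl3 was at 0.34, Ccr9 at -0.04 and Cxcr3 at 0.28. With each array left out, the members that reversed, and Cxcl1, ranged from -0.34 to 0.77 (Ackr4), -1.82 to 1.02 (Ccl3), -2.00 to 0.88 (Ccl6), -2.16 to 0.78 (Ccl8), -0.15 to 0.13 (Ccr3), -0.02 to 0.07 (Ccr9), -0.06 to 0.14 (Ccr10), -1.30 to 1.18 (Cxcl1), -0.79 to 1.66 (Cxcl2), -0.04 to 1.35 (Cxcl10), -0.34 to 0.37 (Cxcl16), -0.13 to 0.60 (Cxcl17), -1.23 to 0.18 (Cxcr3) and -0.46 to 0.04 (Cxcr5). The cause was not tested.

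The median over all genes was -0.03, and became 0.11 with median centring and 0.02 with quantile normalization. The members' median, -0.24, was then -0.10 and -0.19. It was -0.49 with a pseudocount of 1, -0.63 without the lowest 30% of genes and 0.05 without the lowest 50%, where 7 of 14 members were below 0. Genes at an unadjusted p under 0.05 were 364 higher and 749 lower, and became 703 and 492 with median centring and 606 and 581 with quantile normalization. Signal near background limits the 23 members under an intensity of 100, whose differences are compressed.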
